A study of Rattus norvegicus with 9 samples.

Results

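The genes described are 10 genes of sarcoplasmic reticulum calcium handling, chosen by gene symbol from the 22601 genes of the deposited table: Atp2a2, Pln, Sln, Ryr2, Casq2, Trdn, Asph, Hrc, Jph2 and Slc8a1. All 10 were in the table and all 10 passed the filter on low values that left 11717 genes. The 9 RNA libraries came from hearts of rats aged 48 weeks, 3 for each of 3 groups. WKY are Wistar Kyoto rats, a strain with normal blood pressure, and SHR are spontaneously hypertensive rats, and both received 1 ml of distilled water by mouth for 34 weeks. SHR+Allisartan are SHR that received Allisartan, which blocks the type 1 receptor of angiotensin II, in the same vehicle and for the same time. The sources used here name no dose, sex or heart chamber. Strain and hypertension cannot be told apart in a comparison with WKY. Whether libraries stand for separate animals is not stated in the labels, and p-values therefore reflect only the variation among these libraries, some of which may be technical.

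The sarcoplasmic reticulum is the calcium store of the cardiac myocyte. At each beat calcium that enters through the sarcolemma opens the ryanodine receptor Ryr2, stored calcium leaves through it and the myofilaments contract. Relaxation follows when the pump SERCA2, the product of Atp2a2, returns calcium to the store and the exchanger encoded by Slc8a1 carries the rest out of the cell. The small membrane proteins phospholamban (Pln) and sarcolipin (Sln) inhibit the pump. Inside the store, calsequestrin (Casq2) and the histidine-rich protein Hrc bind calcium, and triadin (Trdn) and junctin, a product of the Asph gene, anchor calsequestrin to the release channel. Junctophilin 2 (Jph2) holds the store against the sarcolemma.

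Hrc and Trdn had the largest called changes in SHR against WKY and in SHR+Allisartan against SHR, and Ryr2 moved the other way. The stretches around their annotated starts are shown because they differ in CpG content, that is in the number of C bases followed by G (in capitals). Each holds 250 bases before and 50 bases from the start of the gene, 5′ to 3′ on the gene's strand, from RefSeq on build GRCr8. They lie at chr1:104949500-104949799 on the plus strand for Hrc, chr1:26229550-26229849 on the minus strand for Trdn and chr17:63081277-63081576 on the plus strand for Ryr2.
Hrc: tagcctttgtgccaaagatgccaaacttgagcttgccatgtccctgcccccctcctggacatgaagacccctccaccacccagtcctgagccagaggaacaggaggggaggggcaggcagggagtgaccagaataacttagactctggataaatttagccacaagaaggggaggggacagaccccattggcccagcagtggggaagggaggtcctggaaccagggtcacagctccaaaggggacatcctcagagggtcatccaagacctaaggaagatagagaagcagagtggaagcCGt
Trdn: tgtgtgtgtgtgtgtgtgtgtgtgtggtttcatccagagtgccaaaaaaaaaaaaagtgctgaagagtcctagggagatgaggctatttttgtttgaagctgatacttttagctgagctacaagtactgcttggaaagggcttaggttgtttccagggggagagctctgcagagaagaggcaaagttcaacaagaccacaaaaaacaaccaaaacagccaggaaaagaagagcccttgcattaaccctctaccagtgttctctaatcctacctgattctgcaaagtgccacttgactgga
Ryr2: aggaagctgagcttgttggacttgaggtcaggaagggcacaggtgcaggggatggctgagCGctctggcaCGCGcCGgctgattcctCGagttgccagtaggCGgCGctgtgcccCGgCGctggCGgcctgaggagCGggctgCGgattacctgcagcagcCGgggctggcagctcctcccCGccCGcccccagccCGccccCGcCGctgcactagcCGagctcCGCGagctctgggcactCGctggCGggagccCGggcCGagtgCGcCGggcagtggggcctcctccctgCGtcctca

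The Trdn stretch held 0 CpG and the Hrc stretch 1, whereas that of Ryr2 held 28. Among 33469 such stretches of rat genes the median was 7, and 13.6% held at most 1. Of the 8 members with an entry, Atp2a2 had the most CpG, 52, at a GC content of 79.0%, and Pln had 4 at a GC content of 45.0%. Casq2 and Slc8a1 had 6 each and Jph2 had 10. Atp2a2, with the most CpG, and Pln were called lower in SHR than in WKY, as Hrc and Trdn were. The count is a description of these stretches only, and a link with the direction of change was not tested. No methylation or factor binding was measured here.

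Levels are given as FPKM (fragments per transcript length and library size) after 1 rescaling factor per library, so that levels of different genes are compared per length. All values are of RNA, and protein names below stand for their transcripts. Protein, phosphorylation and calcium flux were not measured here. Pln and Atp2a2 were the most abundant members in each group. In WKY they ranked 16th and 17th among all genes, with means of 2747 ± 131 and 2298 ± 45.5 (SD, n = 3). Casq2 followed at 508 ± 14.8 and Hrc at 244 ± 8.42. Jph2 and Ryr2, at 110 ± 12.9 and 99.8 ± 10.9, overlapped in WKY and in SHR but not in SHR+Allisartan. Trdn stood at 33.5 ± 1.65. Asph and Slc8a1, at 13.6 ± 0.290 and 13.5 ± 1.07, overlapped in every group. Sln was the lowest member, at 3.21 to 6.19 in WKY. The order of the members by mean was the same in the 3 groups except that Ryr2 stood above Jph2 in SHR. The libraries held 14279 to 14948 genes above 0 and summed to 359207 to 388172 FPKM, and their log2 values correlated at 0.985 to 0.99 within groups and less, from 0.961 upward, between groups. Of a library's summed FPKM the 10 genes made up between 1.51% and 1.70% in WKY, between 1.30% and 1.43% in SHR, and between 1.45% and 1.53% in SHR+Allisartan.

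Changes are differences of group means on the log2 scale after 0.5 was added to the rescaled FPKM, which understates the changes of low genes. Called means an adjusted p under 0.05 by limma, with Benjamini-Hochberg adjustment over all 11717 genes tested. In SHR against WKY, 5 of the 10 members were called, where 21.9% of all tested genes were. Atp2a2, Pln, Trdn and Hrc fell and Ryr2 rose. In SHR+Allisartan against SHR, 5 of 10 were called, where 33.5% of all tested genes were. Pln, Casq2, Trdn and Hrc rose and Ryr2 fell. In SHR+Allisartan against WKY, 3 of 10 were called, against 24.3% of tested genes: Atp2a2 and Ryr2 were lower in SHR+Allisartan and Trdn was higher. The median log2 change over the 10 members was -0.07, -0.00265 and 0.03 in these comparisons, beside 0.01, -0.03 and -0.00949 over all tested genes. Pln, Ryr2, Trdn and Hrc were called in opposite directions in the first and second comparison. These comparisons share the SHR libraries, and 12.3% of all tested genes were called in this manner. In bulk tissue, fewer cells of a type and less RNA per cell cannot be told apart.

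**Figure D1:**
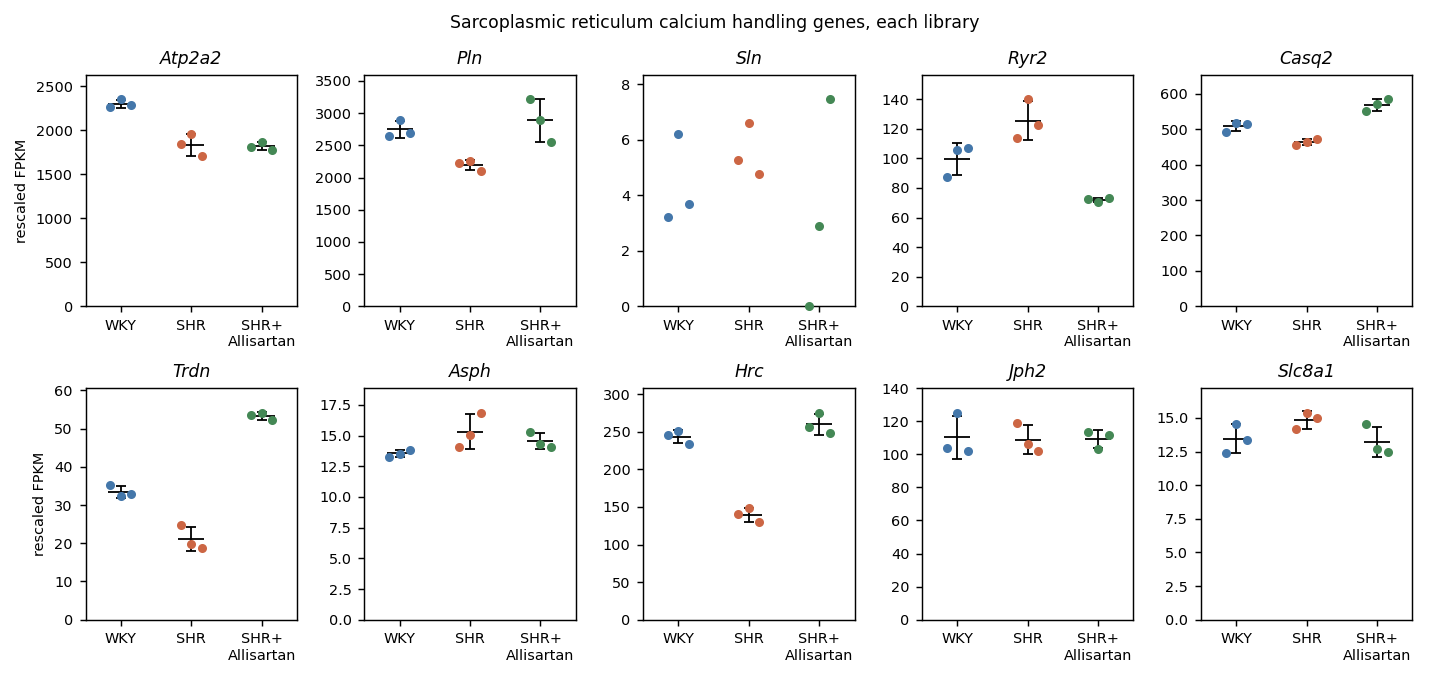
Rescaled FPKM (vertical axes, each from 0) of the 10 genes in each library, by group. Points are libraries and bars are the mean ± SD of 3 libraries, left out for Sln, which is listed at 0 in 1 library. Hrc and Trdn are lowest in the 3 SHR libraries, and Ryr2 is highest there and lowest in the 3 SHR+Allisartan libraries.

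The uptake pump came first among the members by role. Atp2a2 (GeneID 29693) was at 2263, 2349 and 2281 in the WKY libraries, 1841, 1956 and 1703 in SHR, and 1809, 1864 and 1773 in SHR+Allisartan. Every WKY library was above all libraries of the other groups, and SHR and SHR+Allisartan overlapped. The log2 change was -0.33 in SHR against WKY (SE 0.0673, adjusted p = 0.00635 by limma) and -0.34 in SHR+Allisartan against WKY (SE 0.0673, adjusted p = 0.00513 by limma). Between SHR+Allisartan and SHR it was -0.01, with a 95% interval of -0.161 to 0.136. With cyclic loess normalization the SHR change was -0.16 and was not called (adjusted p = 0.109 by limma), whereas the change of SHR+Allisartan against WKY stayed called under each alternative.

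Transcripts of the inhibitor phospholamban were lower in SHR than in WKY, as those of the pump were, and higher in SHR+Allisartan than in SHR. Pln (GeneID 64672) was at 2653, 2897 and 2691 in WKY, 2225, 2260 and 2102 in SHR, and 3214, 2896 and 2551 in SHR+Allisartan. The SHR libraries were below all others, while those of WKY and SHR+Allisartan overlapped. Pln fell by 0.32 on the log2 scale in SHR against WKY (SE 0.087, adjusted p = 0.023 by limma) and rose by 0.39 in SHR+Allisartan against SHR (SE 0.087, adjusted p = 0.00645 by limma). The fall in SHR was not called without WKY replicate 2 (adjusted p = 0.092 by limma) or without SHR replicate 1, 2 or 3 (0.0509, 0.0524 and 0.0831), nor with no filter on low values (0.0814). With cyclic loess normalization it was -0.15 (adjusted p = 0.182 by limma) and the rise in SHR+Allisartan was 0.22 (0.0419). Pln lies within the span of Cep85l in the reference, and that gene was at 1.67 ± 0.178 in WKY, 1.36 ± 0.0932 in SHR and 1.47 ± 0.238 in SHR+Allisartan (n = 3 each).

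The ratio of Pln to Atp2a2 within a library, in which library scaling cancels, sets the transcript of the inhibitor against that of its pump. It was 1.17, 1.23 and 1.18 in WKY and 1.21, 1.15 and 1.23 in SHR, so these groups overlapped. The SHR+Allisartan libraries had ratios of 1.78, 1.55 and 1.44, above every library of the other groups. The mean ratio was 1.32-fold that of SHR and 1.33-fold that of WKY. With 3 libraries against 3 an exact two-sided permutation test cannot go below 0.1, the value it gave for both comparisons (adjusted p = 0.14 over the 7 ratio comparisons that could be made without a pseudocount). For SHR against WKY the exact permutation p was 0.9, with means of 1.20 ± 0.0403 and 1.20 ± 0.0333.

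Sarcolipin, the inhibitor that prevails in atria, was low. Sln (GeneID 367086) was at 3.21, 6.19 and 3.69 in WKY, 5.26, 6.61 and 4.75 in SHR, and 0, 2.88 and 7.45 in SHR+Allisartan. The SHR+Allisartan libraries spanned the range of both other groups. Whether the 0 in replicate 1 is a failed estimate or a low level was not tested. Camk2d, a kinase gene of every cardiac myocyte, was listed at 0 in all 9 libraries, unlike Sln. No change of Sln was called, with intervals of the log2 change of -1.31 to 2 in SHR against WKY and -2.99 to 0.32 in SHR+Allisartan against SHR. The latter rested on single libraries: without SHR+Allisartan replicate 1, the library listed at 0, it was -0.21 (adjusted p = 0.686 by limma), and without replicate 3 it was -2.20 and was called (adjusted p = 0.0229). The ratio of Sln to Atp2a2 was 0.00142, 0.00264 and 0.00162 in WKY and 0.00286, 0.00338 and 0.00279 in SHR, without overlap (1.65-fold by means of log2 ratios, exact two-sided permutation p = 0.1, the smallest possible, adjusted p = 0.14). In SHR+Allisartan it was 0, 0.00155 and 0.00420. Of 12 markers of atrial myocytes, Myl7, the atrial regulatory light chain, was at 1.43 ± 0.560 in WKY, 1.74 ± 0.723 in SHR and 0.671 ± 0.651 in SHR+Allisartan (n = 3 each), and Bmp10 and Mybphl averaged under 1 in each group. Of the 9 tested atrial markers, 2 rose and 1 fell in SHR against WKY, 2 rose and 2 fell in SHR+Allisartan against SHR, and 1 rose and 2 fell in SHR+Allisartan against WKY. In the same order, 11.9% and 9.93%, 16.1% and 17.4%, and 12.9% and 11.4% of all tested genes rose and fell. Myl4, the atrial essential light chain, rose in SHR by 0.93 on the log2 scale, from 3.35 ± 0.810 to 6.82 ± 1.27, and was at 4.68 ± 0.786 in SHR+Allisartan. The potassium channel gene Kcna5 fell in SHR by 1.13 on the log2 scale and rose in SHR+Allisartan against SHR by 1.02, and Kcnj3 rose in SHR+Allisartan against SHR by 0.70. The summed level of the list was between 2090 and 2600 in WKY, between 3953 and 6764 in SHR, and between 649.4 and 935.8 in SHR+Allisartan. Nppa and Pam made up most of these sums. Nppa, which ventricles also express under load, was at 1872 ± 245, 4289 ± 1507 and 340 ± 130.02 in WKY, SHR and SHR+Allisartan, and Pam was at 503 ± 38.6, 618 ± 84.7 and 379 ± 19.99. The part of atrial tissue in the Sln values was not tested.

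The release channel was called in the opposite direction to Hrc and Trdn in SHR against WKY and in SHR+Allisartan against SHR. Ryr2 (GeneID 689560) was at 87.2, 105 and 107 in WKY, 114, 140 and 123 in SHR, and 72.7, 70.6 and 73.0 in SHR+Allisartan. The 3 groups did not overlap, with SHR highest and SHR+Allisartan lowest. The log2 change was 0.33 in SHR against WKY (SE 0.0944, adjusted p = 0.0292 by limma), -0.79 in SHR+Allisartan against SHR (SE 0.0944, adjusted p = 0.000207) and -0.46 in SHR+Allisartan against WKY (SE 0.0944, adjusted p = 0.00608). The rise in SHR was not called without WKY replicate 1 (0.24, adjusted p = 0.0957 by limma), SHR replicate 2 (0.25, 0.106) or SHR replicate 3 (0.35, 0.0685). The other changes of Ryr2 were called under every alternative, among them removal of the trend with genomic span. Ttn, the gene of titin, which also has a very long transcript, was at 40.0 ± 3.19 in WKY, 44.9 ± 4.44 in SHR and 16.5 ± 2.80 in SHR+Allisartan (n = 3 each; log2 change -1.42 in SHR+Allisartan against SHR, adjusted p = 3.8e-05 by limma). Transcript lengths were not used here, and the part of transcript length in the Ryr2 values was not tested.

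The triadin gene had the widest range across groups among the called members. Trdn (GeneID 59299) was at 35.3, 32.3 and 32.8 in WKY, 24.8, 19.8 and 18.8 in SHR, and 53.7, 54.2 and 52.2 in SHR+Allisartan. All SHR libraries were below WKY and all SHR+Allisartan libraries above it. The log2 change was -0.66 in SHR against WKY (SE 0.0969, adjusted p = 0.00104 by limma), 1.32 in SHR+Allisartan against SHR (SE 0.0969, adjusted p = 2.16e-05) and 0.67 in SHR+Allisartan against WKY (SE 0.0969, adjusted p = 0.000967). Each of these 3 calls held under all 18 alternatives. In rank among all genes by mean level, Trdn was at place 1502 in WKY, 2241 in SHR and 975 in SHR+Allisartan. Triadin has isoforms that differ between muscle types, and these gene-level values do not separate them.

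The channel and its anchor were also set side by side within each library. The ratio of Ryr2 to Trdn, chosen after the values were seen and given without a test, was 2.47, 3.27 and 3.26 in WKY and 4.60, 7.06 and 6.53 in SHR. In SHR+Allisartan it was 1.36, 1.30 and 1.40. The mean was 2.996 ± 0.457 in WKY, 6.06 ± 1.29 in SHR and 1.35 ± 0.0484 in SHR+Allisartan. The groups did not overlap, which follows from the separate values of Ryr2 and Trdn.

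**Figure D2:**
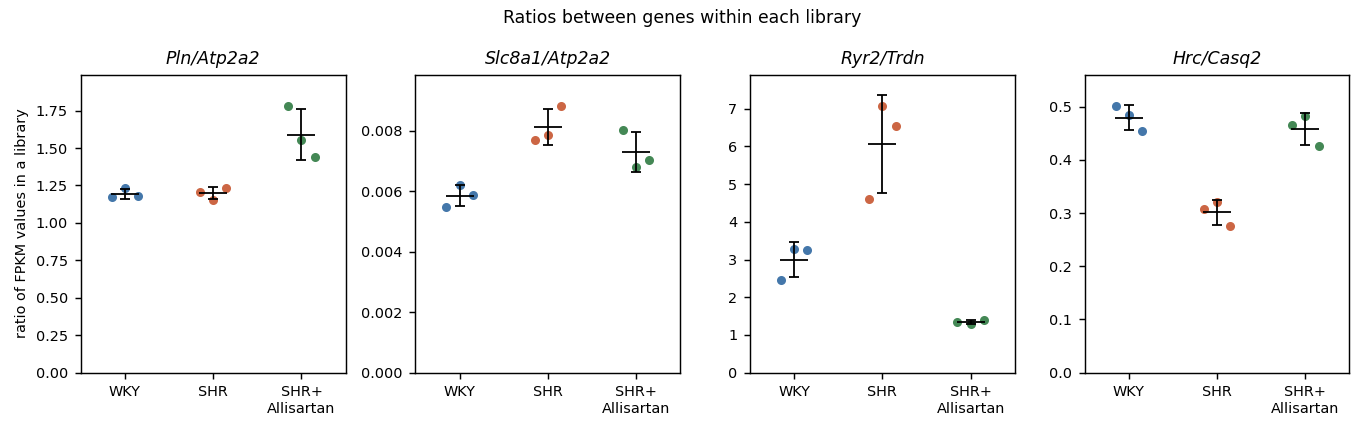
Ratios of the FPKM of gene pairs within each library (vertical axes, from 0), by group. Points are libraries and bars are the mean ± SD of 3 libraries. Pln/Atp2a2 is highest in SHR+Allisartan, Ryr2/Trdn is highest in SHR and lowest in SHR+Allisartan, and Hrc/Casq2 is lowest in SHR.

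The genes of the calcium-binding proteins of the store differed in size of change. Hrc (GeneID 292905) was at 246, 251 and 234 in WKY, 140, 148 and 130 in SHR, and 256, 276 and 249 in SHR+Allisartan. The SHR libraries stood well below all others, and WKY overlapped SHR+Allisartan. The log2 change was -0.80 in SHR against WKY (SE 0.0696, adjusted p = 4.39e-05 by limma) and 0.90 in SHR+Allisartan against SHR (SE 0.0696, adjusted p = 2.65e-05). Both calls held under all 18 alternatives. The 95% interval of SHR+Allisartan against WKY was -0.0608 to 0.247. The size of its change was at percentile 94 of all tested genes in the first comparison and at percentile 95 in the second.

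Casq2 (GeneID 29209), the main calcium buffer of the store, changed less. It was at 491, 518 and 515 in WKY, 456, 463 and 472 in SHR, and 550, 570 and 584 in SHR+Allisartan. The 3 groups did not overlap, with SHR lowest and SHR+Allisartan highest, and 40.9%, 46.4% and 40.1% of tested genes had groups without overlap in the comparisons in the order above. Only the rise in SHR+Allisartan against SHR was called, at a log2 change of 0.29 (SE 0.0566, adjusted p = 0.00313 by limma). That call was lost with quantile normalization (0.21, adjusted p = 0.0661 by limma) and cyclic loess (0.17, 0.103). The log2 change of SHR against WKY was -0.13 (adjusted p = 0.121 by limma), and 0.01 with quantile normalization. SHR+Allisartan against WKY was at 0.16 (adjusted p = 0.0642 by limma), which passed with the trend in genomic span removed (0.0269). The ratio of Hrc to Casq2, chosen after the values were seen, was 0.480 ± 0.0231 in WKY, 0.301 ± 0.0235 in SHR and 0.458 ± 0.0294 in SHR+Allisartan (n = 3 each).

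For Asph, Jph2 and Slc8a1 no change was called in any comparison. Asph (GeneID 312981) lay between 13.3 and 13.9 in WKY, between 14.1 and 16.9 in SHR, and between 14.1 and 15.3 in SHR+Allisartan, and its log2 change in SHR against WKY was 0.17 (95% interval -0.0146 to 0.353). The WKY libraries were the lowest. The Asph gene encodes the hydroxylase aspartate beta-hydroxylase as well as junctin and junctate, and the value is of the whole gene, so junctin was not measured apart. Jph2 (GeneID 296345) lay between 102 and 125 in WKY, between 102 and 119 in SHR, and between 103 and 113 in SHR+Allisartan. Its log2 changes were -0.02, 0.00725 and -0.00858, with 95% intervals from -0.219 to 0.210 over the 3 comparisons. Changes within those intervals were not detectable with these libraries.

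The exchanger Slc8a1 (GeneID 29715), which is in the sarcolemma and not in the reticulum, was at 12.4, 14.6 and 13.4 in WKY, 14.2, 15.4 and 15.0 in SHR, and 14.5, 12.7 and 12.5 in SHR+Allisartan. All pairs of groups overlapped. The log2 change was 0.14 in SHR against WKY (95% interval -0.0587 to 0.336) and -0.16 in SHR+Allisartan against SHR (-0.359 to 0.0352). The level of Slc8a1 relative to Atp2a2 was higher in SHR and SHR+Allisartan than in WKY. Slc8a1 itself was not called there, and Atp2a2 was called lower in both. The ratio of Slc8a1 to Atp2a2 was 0.00549, 0.00620 and 0.00587 in WKY, 0.00769, 0.00787 and 0.00881 in SHR, and 0.00803, 0.00681 and 0.00704 in SHR+Allisartan. Every SHR and SHR+Allisartan library was above the WKY libraries. The ratio was 1.39-fold that of WKY in SHR and 1.24-fold in SHR+Allisartan (exact two-sided permutation p = 0.1 each, the smallest possible, adjusted p = 0.14). SHR and SHR+Allisartan overlapped (exact permutation p = 0.3, adjusted p = 0.35).

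**Figure D3:**
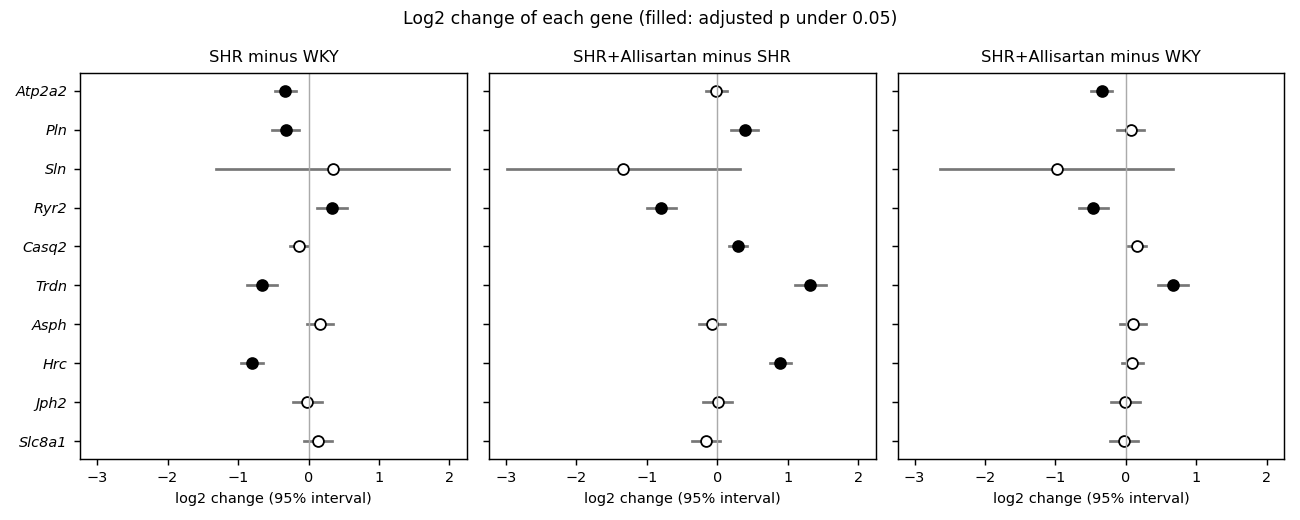
Log2 change (horizontal axes) of each gene in the 3 comparisons, with its 95% interval from limma. Filled points have an adjusted p under 0.05: 5 genes in each of the first 2 panels and 3 in the last. Trdn and Hrc lie on opposite sides of 0 in the first 2 panels, and Sln has the widest intervals.

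Markers of several cell types also differed between the groups. The summed level of 14 markers of ventricular myocytes was between 34370 and 38050 in WKY, between 29050 and 30920 in SHR, and between 40450 and 42590 in SHR+Allisartan. Of these 14, 0 rose and 3 fell in SHR against WKY, and 6 rose and 4 fell in SHR+Allisartan against SHR. For this and the other lists, 11.9% of all tested genes rose and 9.93% fell in the first comparison, and 16.1% and 17.4% in the second. Of the 14 ventricular markers, none was at 0, while Tcap, a sarcomere gene abundant in myocytes, averaged 0.720 to 1.42. Tnni3, cardiac troponin I, was at 7011 ± 492, 4698 ± 335 and 10781 ± 1224 in WKY, SHR and SHR+Allisartan. Its log2 change of 1.195 in SHR+Allisartan against SHR was the largest called rise among the 14. The 4 that fell there were Ttn (-1.42), Csrp3 (-0.72), Mybpc3 (-0.58) and Myom1 (-0.18). The summed level of 10 fibroblast markers was between 438.9 and 486.9 in WKY, between 800.7 and 855.8 in SHR, and between 465.4 and 528.6 in SHR+Allisartan. Of these, 7 rose in SHR against WKY and 8 fell in SHR+Allisartan against SHR. All 8 macrophage markers rose in SHR against WKY. Their sum was between 135.8 and 154.7 in WKY, between 378.4 and 448.7 in SHR, and between 200.2 and 244.7 in SHR+Allisartan. The 8 smooth muscle and pericyte markers summed to values between 203.3 and 261.4 in WKY, between 302 and 324.9 in SHR, and between 258.6 and 343.2 in SHR+Allisartan. The 8 endothelial markers summed to between 151.5 and 172.9 in all libraries. Of 10 skeletal muscle markers 9 averaged under 1 in each group. The 6 erythroid markers summed to values between 298.4 and 579.6 in WKY, between 170.5 and 323.5 in SHR, and between 857.3 and 2257 in SHR+Allisartan. Their part in the changes of the members was not tested.

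Partner genes of calcium cycling were taken from 6 lists with 81 genes, of which 78 were in the table and 63 passed the filter. In SHR against WKY 8 rose and 13 fell, in SHR+Allisartan against SHR 13 rose and 10 fell, and in SHR+Allisartan against WKY 5 rose and 10 fell. As shares of the 63 these counts stand beside 11.9% and 9.93%, 16.1% and 17.4%, and 12.9% and 11.4% of all tested genes that rose and fell. The median log2 change over them was -0.02, 0.02 and -0.05. The balance in the second comparison turned with the scaling, to 7 higher and 13 lower with no rescaling and 8 and 11 with quantile or cyclic loess normalization. It was 10 and 11 with no filter on low values and 11 and 11 with only the 6 libraries compared. Leaving out a library of these 2 groups gave 12 and 10, 8 and 9, and 7 and 9 (SHR replicates 1, 2 and 3) and 10 and 10, 8 and 10, and 9 and 10 (SHR+Allisartan replicates 1, 2 and 3). Over all tested genes, 1398 rose and 1163 fell in SHR against WKY, and 1703 and 932 with no rescaling. Without SHR replicate 3 the first count of partner genes was 5 and 7. The third was 2 and 3 without WKY replicate 2, 3 and 5 without WKY replicate 3, 4 and 5 without SHR+Allisartan replicate 2, and 3 and 6 without SHR+Allisartan replicate 3.

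Of 3 tested regulators of the pump, 2 fell in SHR against WKY and rose in SHR+Allisartan against SHR, as Hrc and Trdn did. Opposite calls in these 2 comparisons, which share the SHR libraries, were made for 12.3% of all tested genes. S100a1, a calcium sensor that binds the pump and the release channel, was at 48.7 ± 2.43 in WKY, 27.9 ± 1.76 in SHR and 57.3 ± 1.34 in SHR+Allisartan (n = 3 each). Its log2 change was -0.79 in SHR against WKY (adjusted p = 4.86e-05 by limma), 1.03 in SHR+Allisartan against SHR (1.92e-05) and 0.23 in SHR+Allisartan against WKY (0.0345). Ppp1r1a, inhibitor 1 of the phosphatase that acts on phospholamban, was at 3.296 ± 0.115, 1.87 ± 0.448 and 5.15 ± 1.17, with log2 changes of -0.70, 1.25 and 0.55 (adjusted p = 0.0131, 0.000372 and 0.0338 by limma). Hax1, which binds phospholamban, was called in SHR+Allisartan against WKY only, at -0.35.

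Of 16 tested partners of the release channel and of the store, 2 rose and 3 fell in SHR against WKY, and 4 rose and 3 fell in SHR+Allisartan against SHR. Over all tested genes, 11.9% rose and 9.93% fell in the first comparison, and 16.1% and 17.4% in the second. The calmodulin genes Calm2 and Calm3 fell in SHR by 0.53 and 0.46 on the log2 scale, and Tecrl, a membrane protein of the reticulum, fell by 0.57. Calr, the store protein calreticulin, was higher by 0.37 in SHR than in WKY and by 0.63 in SHR+Allisartan than in WKY. Srl, the store protein sarcalumenin, moved with Ryr2 and not with Hrc, at 102 ± 4.17 in WKY, 117 ± 5.70 in SHR and 85.9 ± 2.93 in SHR+Allisartan (n = 3 each; log2 change -0.44 in SHR+Allisartan against SHR, adjusted p = 0.000579 by limma). It was also called in SHR against WKY (0.20, adjusted p = 0.0461 by limma) and in SHR+Allisartan against WKY (-0.24, 0.0202). Ahnak and Cmya5 were also lower in SHR+Allisartan than in SHR, by -0.56 and -0.47, and Calm3 was higher, by 0.36. Against WKY, 3 rose and 5 fell in SHR+Allisartan. Among them were Ahnak (-0.58), Calm2 (-0.47) and Tmem38a (-0.42, adjusted p = 0.0426 by limma), a cation channel of the store. The shares of all tested genes there were 12.9% and 11.4%. Fkbp1b, whose product binds Ryr2, was listed at 0 in 6 of the 9 libraries and under 0.14 in the others, so it did not pass the filter. Whether these values are failed estimates was not tested.

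Paralogs of the members were tested where they passed the filter, which 11717 of all 22601 genes did. Of 14, 8 were tested. Slc8b1, the mitochondrial sodium-calcium exchanger, was the 1 called in SHR against WKY, at 0.50 (adjusted p = 0.0449 by limma). In that comparison 21.9% of all tested genes were called. Ryr3, a ryanodine receptor of other tissues, fell with Ryr2 in SHR+Allisartan, from 1.27 ± 0.273 to 0.637 ± 0.0988 (log2 change -0.63, adjusted p = 0.01 by limma). Ryr3 was also below WKY there (-0.49, adjusted p = 0.0412 by limma). Atp2a1 and Ryr1, the pump and channel of skeletal muscle, averaged 0.12 or less.

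At the sarcolemma, 3 of 14 tested genes rose and 2 fell in SHR against WKY, and 1 rose and 4 fell in SHR+Allisartan against SHR. Beside these stand 11.9% and 9.93%, and 16.1% and 17.4%, of all tested genes that rose and fell. The T-type calcium channel genes Cacna1g and Cacna1h, which are known from the fetal heart, were higher in SHR by 1.496 and 0.92 on the log2 scale, and lower in SHR+Allisartan than in SHR by -1.11 and -0.96. The level of Cacna1g was 0.940 ± 0.0533 (WKY), 3.67 ± 1.20 (SHR) and 1.38 ± 0.214 (SHR+Allisartan), with n = 3 each. The cation channel gene Trpc6 went from 0.156 ± 0.0427 to 0.999 ± 0.229 and 0.242 ± 0.152. Trpc6 reached the filter level of 0.5 in the SHR libraries only, and Cacna1h in those and 1 WKY library. Both thus entered the test through the group where they were high. Both are among the genes counted above as rising in SHR and falling in SHR+Allisartan, directions that the filter favoured. Trpc1 fell in SHR by 0.43 (adjusted p = 0.0441 by limma). Atp2b4, a calcium pump of the sarcolemma, was at -0.46 in SHR+Allisartan against SHR (adjusted p = 0.0148 by limma). Of the 14, limma called 0 in SHR+Allisartan against WKY, where 24.3% of all tested genes were called. Atp2b4 had the smallest p there (log2 change -0.31, adjusted p = 0.0883 by limma), while 3 of the 14 had an unadjusted p under 0.05.

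Among kinases, phosphatases and anchors, 1 of 16 tested rose and 5 fell in SHR against WKY, and 5 rose and 2 fell in SHR+Allisartan against SHR. Over all tested genes, 11.9% rose and 9.93% fell in the first comparison, and 16.1% and 17.4% in the second. Akap7, an anchor of protein kinase A at phospholamban, had the pattern of Hrc, at 10.8 ± 0.384 in WKY, 6.55 ± 0.397 in SHR and 11.4 ± 1.44 in SHR+Allisartan (n = 3 each; log2 changes -0.68 and 0.75 in the first and second comparison). The phosphatase gene Ppp1cb was at -0.47 and 0.46, and the phosphodiesterase gene Pde4d fell by 0.51 in SHR. Rcan1, a calcineurin target and inhibitor, moved the other way, at 366 ± 24.3, 494 ± 48.4 and 260 ± 28.9 (log2 changes 0.43, -0.93 and -0.50 in the 3 comparisons). Camk2b and Ppp3cb were lower in SHR+Allisartan than in WKY, by -0.97 and -0.48, and Camk2b also than in SHR (-0.53). Of 6 mitochondrial uptake genes, Letm1 was higher in SHR than in WKY (0.35, adjusted p = 0.0205 by limma) and Smdt1 lower (-0.20, 0.0359). Mcu was higher in SHR+Allisartan than in SHR (0.27, adjusted p = 0.0474 by limma). Against WKY, limma called 0 of these 6 in SHR+Allisartan, beside 24.3% of all tested genes. Micu2 was at 0.18 (adjusted p = 0.0833 by limma), the 1 gene of the 6 with an unadjusted p under 0.05.

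**Figure D4:**
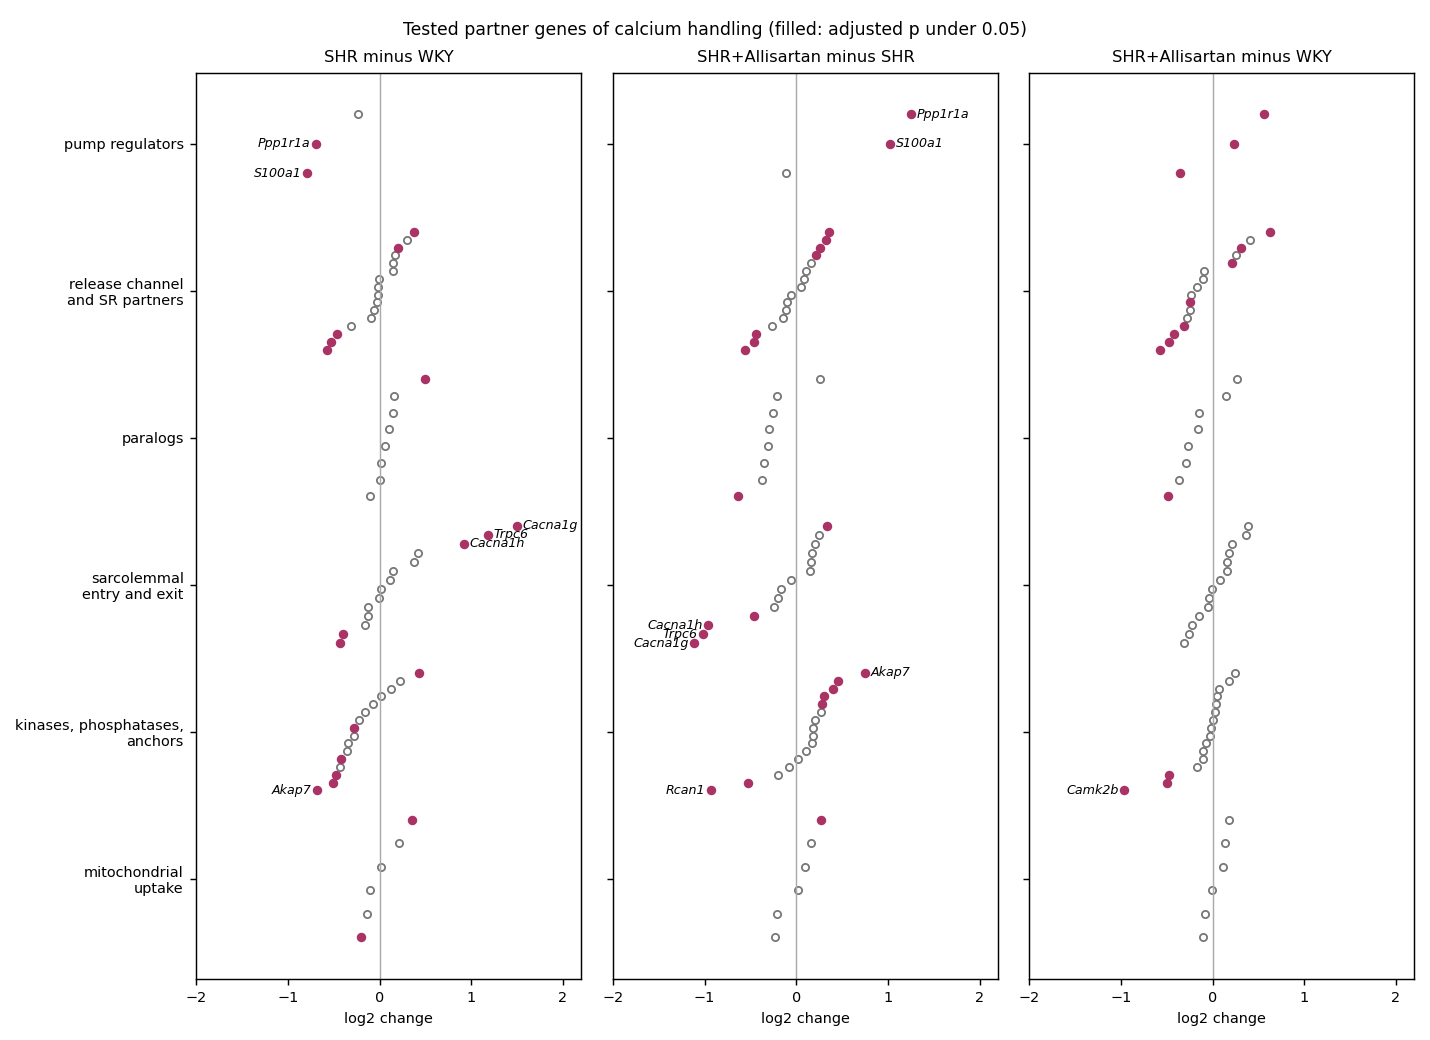
Log2 change (horizontal axes) of the 63 tested partner genes by list in the 3 comparisons. Each point is a gene, filled where the adjusted p was under 0.05, and called genes with a change of at least 0.65 are named. S100a1, Ppp1r1a and Akap7 lie below 0 in the first panel and above 0 in the second. Cacna1g, Cacna1h and Trpc6 lie the reverse way. Of these, Cacna1h and Trpc6 passed the filter on low values only through SHR, the group where they were high.

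The genes whose log2 values followed a member most closely over the 9 libraries are given as a description. For Atp2a2 these were Ankrd50, Lrsam1, Rragd, Bzw2 and Acss1, with Pearson correlations of 0.967 to 0.979. For Sln they were Zfp281, Gimap6, Ercc6, RGD1563365 and Zeb1, at 0.933 to 0.967, a pattern in which the library where Sln is listed at 0 has much weight. Neither set contained another of the 10 members. Only the closest genes were kept, so this does not show how the members varied together. The correlations also take in the differences between groups.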

How the data were processed

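FPKM values per gene and library were deposited by the authors for 9 rat heart libraries, with no further scaling recorded per the file headers. The tools named per the submitters' processing notes are HISAT2, Trimmomatic, HTSeq, Cufflinks and DESeq, and the build is Rnor_6.0. Per the labels' protocols the libraries were stranded mRNA libraries. The sources used here give no versions, roles, gene models or read counts, so the depth behind each value is unknown. The 9 columns were assigned to groups by the letters in the series' design.

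Each library was divided by a median-of-ratios factor (0.965 to 1.04) over the 9194 genes that reached 1 FPKM in every library. The filter asked for 0.5 in 3 libraries, and 0.5 was added before log2. Group means were fitted over the 9 libraries in limma 3.58.1 (R 4.3.3) with a variance trend (6 residual degrees of freedom). P-values were two-sided. The fit was tested on simulated data. Alternatives were no rescaling, quantile and cyclic loess normalization, pseudocounts of 1 and 0.1, no filter, 6 libraries only, a replicate block, leaving out each library and a correction for genomic span, known for 98.2% of tested genes. Ratios used exact permutation tests.

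The members, the lists and the rule for naming genes were chosen with earlier results of these data known. Named were all members and, per list and comparison, up to 4 called partner genes with the largest change, or the gene with the smallest p. Promoter stretches came from RefSeq (GRCr8), matched by gene identifier for 8 of 10 members. Python 3.11.15 and matplotlib 3.10.9 drew the figures.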

Additional observations from a re-analysis of the deposited data

How the results depend on the processing

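Trdn and Hrc kept the same calls in all 3 comparisons under all 18 alternatives. In SHR against WKY, 3 members were called with cyclic loess, and leaving out 1 library gave 3 to 5 (3 without SHR replicate 2 or 3), 12 to 21 partner genes and 1583 to 2628 genes in all. For SHR+Allisartan against WKY, leaving out 1 library gave 5 to 15 partner genes. The direction of several uncalled changes turned, and the cause was not tested. With quantile normalization the log2 change in SHR against WKY was 0.0112 for Casq2 and 0.0141 for Jph2, and that of Jph2 was 0.0342 with no rescaling and 0.0439 with cyclic loess. In SHR+Allisartan against SHR, Jph2 was at -0.0618, -0.0537 and -0.072 under these settings. With the span trend removed, Atp2a2 (0.0183) and Asph (0.00674) turned in SHR+Allisartan against SHR, and Jph2 (0.0197) and Slc8a1 (0.0265) in SHR+Allisartan against WKY. Leaving out 1 library gave ranges of -0.0801 to 0.0782 for Jph2 in SHR against WKY, and of -0.0645 to 0.0354 for Atp2a2 and -0.0398 to 0.0715 for Jph2 in SHR+Allisartan against SHR. In SHR+Allisartan against WKY they were -0.0142 to 0.153 for Pln, -1.85 to 0.141 for Sln, -0.0609 to 0.0854 for Jph2 and -0.0899 to 0.0328 for Slc8a1. The log2 ratio of Pln to Atp2a2 in SHR against WKY ranged from -0.0158 to 0.0319. Depth is unknown, so what it limits could not be given.

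Residuals of same-numbered libraries correlated at -0.0623 to 0.0828, and those of other numbers at -0.0694 to 0.064. No pairing by replicate number was seen in these values, which cannot exclude one. With the replicate block 5, 5 and 4 members were called in the 3 comparisons, beside 5, 5 and 3 without it, the added call being Casq2 in SHR+Allisartan against WKY (log2 change 0.16, adjusted p = 0.0487 by limma).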
